A study of Mus musculus with 24 samples.

Results

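Of the 24 libraries of this mouse RNA-seq series, 6 are described here. They hold the response to oral alpha-galactosylceramide (aGC) of invariant natural killer T (iNKT) cells from male mice of the KO FT group, chosen by their labels as the 3 male aGC libraries and the 3 male PBS libraries of that group. KO FT mice were C57BL/6J animals born to dams given a fecal transplant (FT) from CD1d-knockout donors. The mice sampled were thus not themselves CD1d knockouts. The treated mice received 2 µg aGC in 200 µL PBS by oral gavage, the controls the same volume of vehicle, and iNKT cells were sorted from the mesenteric lymph nodes (mLN) 24 h later. The other libraries come from KO FT females and from mice born to dams that received feces of wild-type donors (WT FT), in the same design with 3 libraries a group. The number of mice behind a library, their age and the sort gate are not given in the labels, and the 3 libraries of a group are not stated to come from separate animals, so every p-value below measures the spread between libraries, which may be technical.

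iNKT cells are T cells with a nearly invariant T cell receptor alpha chain, in mouse the Trav11 segment joined to Traj18, which recognises glycolipids held by the MHC-like molecule CD1d. aGC is a strong agonist of that receptor. On stimulation the cells release stored and newly made cytokines within hours and then enlarge and divide, and their subsets iNKT1, iNKT2 and iNKT17 differ in the cytokines they make.

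Counts per library were 14629666, 13157498 and 21349436 in the aGC libraries, against 12268531, 27906841 and 10616109 in the PBS libraries. Levels are given in CPM, counts scaled to the same normalised library total in every library. In these units 3 counts in a single library correspond to 0.101 to 0.267 CPM. CPM values are not divided by gene length and are compared between libraries for 1 gene at a time. Log2 CPM correlated at 0.977 to 0.985 between libraries of the same treatment and at 0.935 to 0.944 between treatments, as a description across the same genes, and the first principal component, with 65.3% of the variance, separated the treatments.

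The sorted identity was checked against the defining markers. Trav11 (chr14:53519303-53519859, GRCm38) had 445, 425 and 505 CPM in the aGC libraries, against 526, 505 and 523 CPM in the PBS libraries, and Traj18 had 62.4, 65.7 and 70.01 CPM in the aGC libraries, against 72.3, 71.2 and 72.3 CPM in the PBS libraries. Zbtb16, which encodes PLZF, the defining iNKT transcription factor, had 72.4, 60.8 and 75.97 CPM in the aGC libraries, against 84.9, 73.5 and 82.1 CPM in the PBS libraries. The invariant segments and Zbtb16 were present in all 6 libraries. Trav11 was lower with aGC (log2 change -0.18 ± 0.05), though aGC replicate 3 and PBS replicate 2 were both at 505 CPM. That call was lost under some settings given at the end, and Traj18 and Zbtb16 did not pass the test used below.

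Genes that mark conventional T cells were not level between the treatments. Cd8a and Cd8b1, the chains of the CD8 coreceptor that mouse iNKT cells lack, went with the PBS libraries. Cd8a had 8.099, 7.51 and 7.17 CPM in the aGC libraries, against 131, 138 and 139.8 CPM in the PBS libraries. Cd8b1 had 6.36, 6.77 and 6.89 CPM in the aGC libraries, against 263, 258 and 253 CPM in the PBS libraries. The male PBS libraries thus stand apart in these markers, as do the female aGC libraries of the same transplant, where Cd8a ranged from 181 to 199 CPM, against 4.79 to 5.64 CPM in the female PBS libraries. Whether the labels or the sort of these libraries have a part in this was not tested, so every comparison with them, and of males with females, holds only as far as the labels do. The sex labels go with Xist, the RNA of the inactive X chromosome, at 0.0932 to 0.268 CPM in male aGC, 0.155 to 0.2705 CPM in male PBS, 15.9 to 23.4 CPM in female aGC and 38.1 to 48.3 CPM in female PBS libraries. Because of the uneven Cd8a, the gene groups that moved with these markers, and the main growth and effector groups, are also given for the male aGC libraries against the KO FT female PBS libraries, which are low in Cd8a as well. That second comparison uses the same aGC libraries and crosses sex, so its values are set beside the first and are not an independent result. In sorted bulk samples a change in the share of a cell type and a change in RNA per cell cannot be told apart.

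Of 15953 genes tested with edgeR's quasi-likelihood test, 4272 (26.8%) were higher and 4257 (26.7%) lower in the aGC libraries at an adjusted p (Benjamini-Hochberg) under 0.05. At least 2-fold changes were fewer, 1628 (10.2%) higher and 1390 (8.71%) lower. All 3 aGC libraries lay above all 3 PBS libraries for 4383 genes (27.5%) and below them for 4711 (29.5%). The median log2 change over all tested genes was -0.03. Against the KO FT female PBS libraries 4083 genes (25.6%) were higher and 3882 (24.3%) lower, with a median of 0.00. In KO FT females, aGC against PBS, 4419 genes (27.7%) were higher and 4522 (28.3%) lower. The counts over gene lists below are to be read against these percentages. A log2 change of 1 is a doubling.

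**Figure D1:**
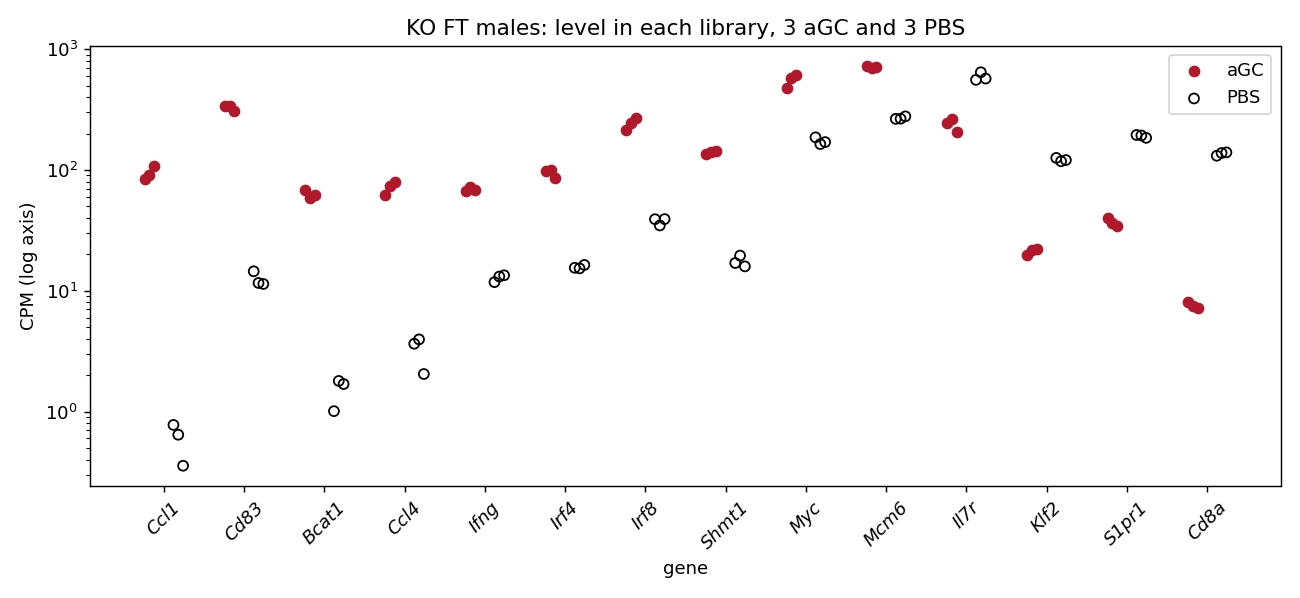
CPM (log axis) of 14 named genes in each of the 6 libraries, male KO FT aGC libraries (filled) left of male KO FT PBS libraries (open). Ccl1, Cd83 and Bcat1 lie more than 10-fold higher in every aGC library than in any PBS library, and Cd8a more than 10-fold lower.

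Chemokine and cytokine genes held some of the largest rises. Ccl1, a ligand of the receptor CCR8, had 84.5, 91.2 and 108 CPM in the aGC libraries, against 0.775, 0.642 and 0.356 CPM in the PBS libraries. Its log2 change was 7.25 ± 0.19 (SE; adjusted p = 5.4e-19). The treatments did not overlap, and the change was 6.47 in KO FT females and 6.57 against the female PBS libraries. Ccl4, which encodes the inflammatory chemokine MIP-1beta, had 62.5, 73.9 and 78.9 CPM in the aGC libraries, against 3.64, 3.96 and 2.04 CPM in the PBS libraries and a log2 change of 4.40 ± 0.15. Xcl1, which encodes the ligand of the dendritic cell receptor XCR1, had 108, 124 and 144 CPM in the aGC libraries, against 44.8, 50.6 and 42.1 CPM in the PBS libraries (log2 change 1.44 ± 0.09, adjusted p = 4.3e-12). Summed over a group before scaling for depth, Xcl1 had 6391 counts in male aGC, 2548 in male PBS and 5464 in female PBS libraries. Ccl5 did not pass the test (log2 change -0.19 ± 0.12). Of the chemokine ligands, 9 of the 11 tested members rose and 1 fell, with a median log2 change of 2.57. In KO FT females 4 rose and 2 fell, with a median of -0.18, and against the female PBS libraries 4 rose and 2 fell, with a median of 0.39.

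Most of the tested cytokines rose in the same libraries. Ifng, the defining cytokine of iNKT1 cells, had 66.5, 72.9 and 67.8 CPM in the aGC libraries, against 11.8, 13.1 and 13.4 CPM in the PBS libraries (log2 change 2.43 ± 0.10, adjusted p = 6.9e-16). Il4, the defining cytokine of iNKT2 cells, had 127, 136 and 139 CPM in the aGC libraries, against 34.6, 41.2 and 31.6 CPM in the PBS libraries (log2 change 1.89 ± 0.09). Every aGC library was above every PBS library for both genes. Csf2, which encodes GM-CSF, had 25.8, 24.3 and 28.6 CPM in the aGC libraries, against 3.41, 3.25 and 3.38 CPM in the PBS libraries, a log2 change of 2.98 ± 0.12, and Tnf had 129, 129 and 129 CPM in the aGC libraries, against 27.3, 24.99 and 24.4 CPM in the PBS libraries, a log2 change of 2.33 ± 0.07. Il2, a T cell growth factor, was low, at 3.35, 4.34 and 3.82 CPM in the aGC libraries, against 0.155, 0.135 and 0 CPM in the PBS libraries. Il10, which encodes an inhibitory cytokine, had 0 counts in the PBS libraries and 0.669, 0.295 and 0.792 CPM in the aGC libraries, at least 11.1-fold higher when set against 3 counts over the PBS group. Of the effector cytokines 11 of the 14 tested members rose and 2 fell (median log2 change 2.38), in KO FT females 10 rose and 2 fell (median 1.46), and against the female PBS libraries 11 rose and 2 fell (median 1.59). Of the 22 listed cytokines 8 had too few counts to be tested.

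Cxcl10, which encodes a ligand of CXCR3 and is induced by interferon and NF-kappaB in many cell types, had a response in males that females did not share. It had 13.1, 13.1 and 14.7 CPM in the aGC libraries, against 1.94, 2.37 and 2.58 CPM in the PBS libraries (log2 change 2.57 ± 0.16, adjusted p = 3.9e-12). Female KO FT libraries had 10.1 ± 0.169 CPM with aGC and 11.5 ± 1.295 CPM with PBS (SD, n = 3 each), and its response differed between males and females by a log2 value of 2.75 (adjusted p = 8.3e-10). The male aGC libraries were 0.26 on the log2 scale above the female PBS libraries (adjusted p = 0.13), and the male PBS libraries were below the female PBS libraries.

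The promoter windows of both chemokine genes are shown because Ccl1 rose in both sexes and Cxcl10 in males. The windows run from 250 bases before to 50 after the annotated start (RefSeq, GRCm38.p6). Capitals mark matches on either strand to an NF-kappaB-like motif (GGGA, any 4 bases, CC), and in Cxcl10 also 1 match to an interferon response-like motif (GAAA, any 2 bases, GAAA). Ccl1 holds 2 overlapping matches to the first motif and Cxcl10 holds 2 separate ones.
Ccl1 (chr11:82179763-82180062, minus strand): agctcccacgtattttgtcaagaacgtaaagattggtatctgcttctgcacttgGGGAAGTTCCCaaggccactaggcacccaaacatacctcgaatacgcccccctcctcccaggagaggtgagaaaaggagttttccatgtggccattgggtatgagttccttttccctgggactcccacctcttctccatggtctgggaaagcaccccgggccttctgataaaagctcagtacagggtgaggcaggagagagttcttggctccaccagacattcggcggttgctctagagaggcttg
Cxcl10 (chr5:92348840-92349139, minus strand): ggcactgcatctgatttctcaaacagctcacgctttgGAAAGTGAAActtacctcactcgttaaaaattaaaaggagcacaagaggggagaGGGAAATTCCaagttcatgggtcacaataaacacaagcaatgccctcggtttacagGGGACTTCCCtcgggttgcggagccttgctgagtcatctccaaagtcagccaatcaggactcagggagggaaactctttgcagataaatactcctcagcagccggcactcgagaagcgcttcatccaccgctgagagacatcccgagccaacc
The NF-kappaB-like motif was found in 20.7% of 32851 promoter windows and in 5 of 10 windows of the listed chemokine genes, and the interferon response-like motif in 3.44% of all windows and in 1 of those 10. A match says only that these letters are in the window.

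Tumour necrosis factor family genes carry co-stimulation between lymphocytes, and 11 of 18 rose. Tnfsf4, which encodes OX40 ligand, had 21.1, 19.8 and 18.6 CPM in the aGC libraries, against 0.155, 0.4395 and 0.267 CPM in the PBS libraries, a log2 change of 5.88 ± 0.24. Its receptor gene Tnfrsf4, for OX40, had 59.3, 48.4 and 57.6 CPM in the aGC libraries, against 13.6, 11.9 and 12.4 CPM in the PBS libraries, a log2 change of 2.13 ± 0.12. Tnfrsf9, for the co-stimulatory receptor 4-1BB, had 390.3, 389.6 and 431 CPM in the aGC libraries, against 96.9, 102 and 101 CPM in the PBS libraries, a log2 change of 2.02 ± 0.06. The aGC libraries were above the PBS libraries without overlap in all 3 genes, and the changes against the female PBS libraries were 5.59 for Tnfsf4, 3.29 for Tnfrsf4 and 2.26 for Tnfrsf9. Tnfrsf21, for death receptor 6, had 8.23, 10.9 and 9.59 CPM in the aGC libraries, against 0.232, 0.101 and 0.178 CPM in the PBS libraries (log2 change 5.92 ± 0.26), against a log2 change of 1.38 when set against the female PBS libraries. Tnfsf11, for RANK ligand, changed by 1.45 ± 0.06, and Tnfrsf18, for GITR, did not pass the test (0.07 ± 0.06). Of the list, 11 of the 18 tested members rose and 4 fell, with a median of 0.40.

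Surface genes of activated lymphocytes mostly rose. Cd83, which encodes a surface protein known from mature dendritic cells and activated lymphocytes, had 338, 337 and 309 CPM in the aGC libraries, against 14.5, 11.6 and 11.4 CPM in the PBS libraries (log2 change 4.73 ± 0.07, adjusted p = 2.1e-23). It changed by 4.54 in KO FT females and by 4.81 against the female PBS libraries. Cd69, an early marker that retains lymphocytes in lymph nodes, had 264, 261 and 239 CPM in the aGC libraries, against 80.1, 79.96 and 83.5 CPM in the PBS libraries, and Il2ra, the high-affinity interleukin-2 receptor chain, had 184, 159.7 and 174 CPM in the aGC libraries, against 60.9, 64.8 and 58.1 CPM in the PBS libraries. The groups did not overlap for either, with log2 changes of 1.65 ± 0.05 for Cd69 and 1.49 ± 0.06 for Il2ra. Of the activation surface genes 14 of the 18 tested members rose and 1 fell (median 0.80). Cd44, an adhesion receptor of activated T cells, was among the 3 that did not pass (0.09 ± 0.07). Among co-inhibitory receptors Pdcd1, for PD-1, had 171, 143 and 163 CPM in the aGC libraries, against 66.5, 63.97 and 65.5 CPM in the PBS libraries (log2 change 1.29 ± 0.08), Cd160 changed by 0.78 ± 0.05, and Ctla4 fell by 0.89 on the log2 scale at low levels, 4.69, 4.79 and 2.93 CPM in the aGC libraries, against 8.29, 8.25 and 5.96 CPM in the PBS libraries. In that list 6 of the 12 tested members rose and 4 fell.

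Most transcription factors induced through the antigen receptor rose. Irf4, whose level follows the strength of antigen receptor signals, had 97.99, 101 and 85.7 CPM in the aGC libraries, against 15.5, 15.3 and 16.4 CPM in the PBS libraries (log2 change 2.59 ± 0.09). Irf8 had 214, 246 and 267 CPM in the aGC libraries, against 39.1, 34.7 and 39.2 CPM in the PBS libraries (log2 change 2.70 ± 0.08). Nr4a1, for the orphan nuclear receptor NUR77, had 403, 446 and 447 CPM in the aGC libraries, against 118, 103 and 107 CPM in the PBS libraries (log2 change 1.98 ± 0.07), and Egr2, an early growth response factor used in iNKT development, changed by 1.43 ± 0.05. Nfkbid, for the atypical NF-kappaB regulator IkappaBNS, changed by 1.73 ± 0.05, and Batf, an AP-1 partner of IRF4, by 0.89 ± 0.07. Of the list, 22 of the 32 tested members rose and 4 fell (median 0.88), in KO FT females 24 rose and 5 fell (median 1.07), and against the female PBS libraries 25 rose and 3 fell (median 1.14). The rise was larger in females for Irf4, Nr4a1, Egr2 and Nfkbid, with differences in response of -1.17, -0.76, -0.56 and -0.72 on the log2 scale (adjusted p from 6.8e-09 to 2.2e-06).

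Feedback genes split. Gadd45b, a stress-response gene that binds MAP kinase kinases, is not on the feedback list and is given beside it. It had 138, 156 and 164 CPM in the aGC libraries, against 31.1, 32.7 and 25.96 CPM in the PBS libraries (log2 change 2.34 ± 0.07). Dusp4, a phosphatase of MAP kinases in the nucleus, had 331 counts over the aGC libraries, against 1 count over the PBS libraries, a ratio of 356 with a 95% counting interval of 63.4 to 14095. Socs3, an inhibitor of cytokine signalling through STAT3, had 34.1, 31.3 and 34.6 CPM in the aGC libraries, against 187, 153 and 175 CPM in the PBS libraries, a log2 change of -2.36 ± 0.08. Dusp1, another MAP kinase phosphatase and an immediate early gene, had 102, 100.1 and 97.95 CPM in the aGC libraries, against 274, 260.2 and 259 CPM in the PBS libraries, a log2 change of -1.40 ± 0.05. Neither Socs3 nor Dusp1 overlapped between treatments, but in KO FT females their changes were 0.07 and 0.09, neither past the test, and the differences in response were -2.43 and -1.50 (adjusted p = 1.4e-13 and 5.7e-14). Of the feedback list, 10 of the 22 tested members rose and 7 fell.

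The host gene of miR-155, Mir155hg, was at 0 in the 3 PBS libraries and had 5.35, 7.73 and 4.29 CPM in the aGC libraries, at least 99.3-fold higher when set against 3 counts over the PBS group. The KO FT females had 4.55 ± 0.807 CPM with aGC and 0.2601 ± 0.183 CPM with PBS (SD, n = 3 each). The mature miRNA, a regulator of lymphocyte activation, was not measured by these libraries. Its sequence is given with the seed (bases 2 to 8) in capitals to show which product the transcript carries (RefSeq, GRCm38.p6, chr16:84714143-84714165, plus strand).
mmu-miR-155-5p: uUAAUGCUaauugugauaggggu

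Other genes among the 15 largest rises were Fam83g, Sema4c, Bcat1, Ak4 and Map1b. Fam83g, of a family of casein kinase partners, was at 0 in the PBS libraries and had 9.64, 12.1 and 13.6 CPM in the aGC libraries, at least 215-fold higher against the same floor. Sema4c, for a membrane semaphorin, had 350 counts over the aGC group and 3 over the PBS group, a ratio of 125 (95% counting interval 42.6 to 611). Bcat1, the cytosolic branched-chain aminotransferase, had 67.8, 58.9 and 62.3 CPM in the aGC libraries, against 1.01, 1.79 and 1.69 CPM in the PBS libraries, a log2 change of 5.33 ± 0.25. Bcat1 changed by 5.45 in KO FT females and by 5.82 against the female PBS libraries. Ak4, for a mitochondrial adenylate kinase, and Map1b, for a microtubule-associated protein, were below 0.4 CPM in every PBS library, with 5.76, 4.197 and 5.78 CPM for Ak4 and 6.36, 4.42 and 6.24 CPM for Map1b in the aGC libraries.

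**Figure D2:**
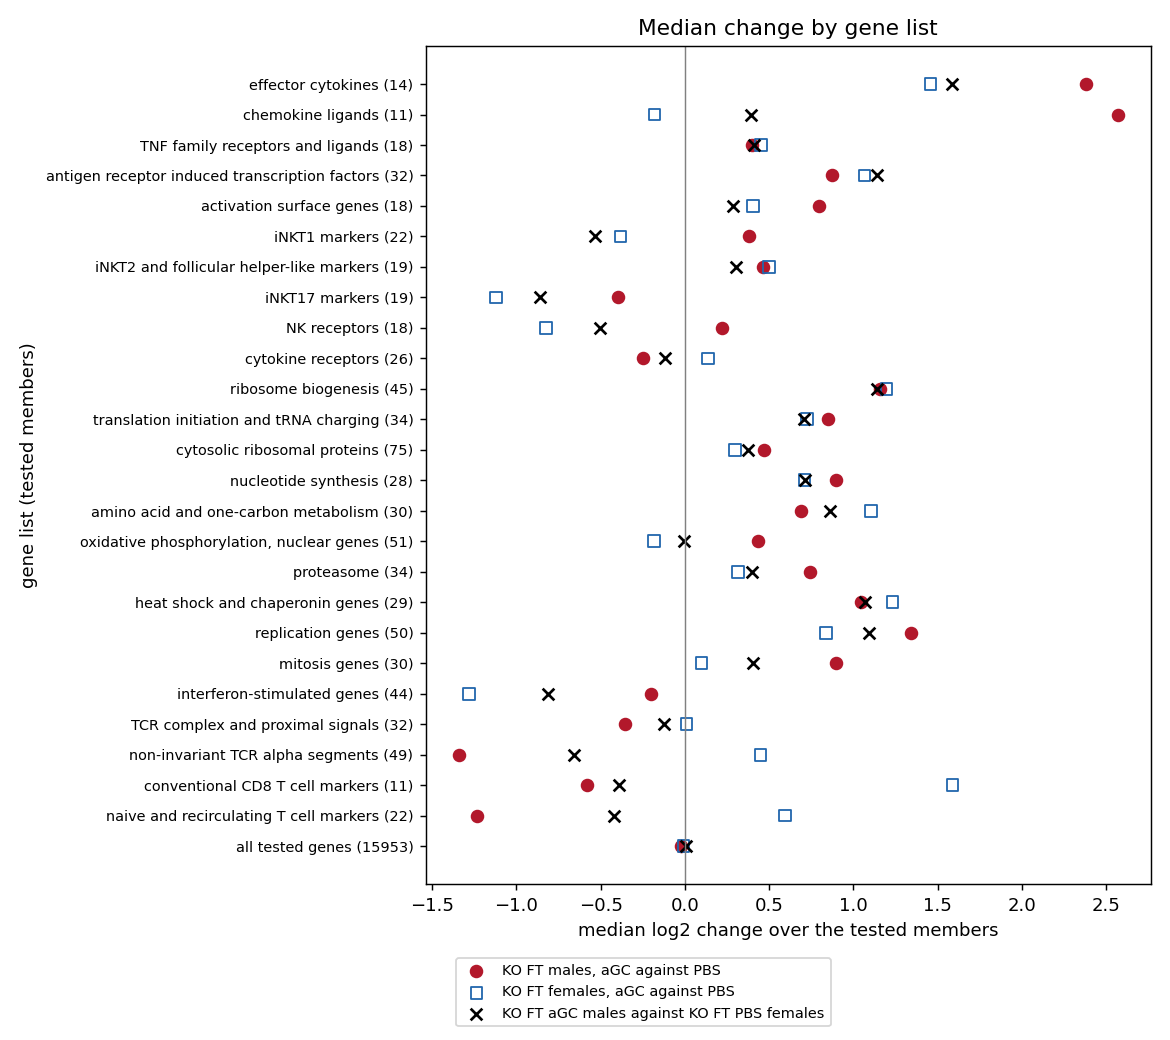
Median log2 change of the tested members of 25 gene lists (aGC against PBS), for KO FT males (filled circles), KO FT females (open squares) and KO FT aGC males against KO FT PBS females (crosses), with the median of all tested genes at the bottom. Growth and replication lists lie to the right of 0 in all 3, and the naive T cell list lies left of 0 in males, at -1.23, and right of 0 in females, at 0.60.

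Lineage factors moved both ways: 5 of the 18 tested members rose and 9 fell, among them 2 rises and 2 falls of at least 2-fold. Tbx21, which encodes T-bet and drives iNKT1 cells, had 420.3, 430.2 and 417 CPM in the aGC libraries, against 353, 310.0 and 340.1 CPM in the PBS libraries (log2 change 0.34 ± 0.05, adjusted p = 3.3e-06). Its response had the opposite sign in KO FT females (-0.38), and the male aGC libraries were below the female PBS libraries (-0.40). Gata3, for the iNKT2 factor, changed by 0.27 ± 0.11. Zbtb16 did not pass the test (-0.20 ± 0.08, adjusted p = 0.054). Eomes, a T-box factor related to T-bet, had 26.3, 26.2 and 24.97 CPM in the aGC libraries, against 8.13, 9.84 and 10.6 CPM in the PBS libraries (log2 change 1.44 ± 0.11), and changed by 4.94 in females. The other rise of at least 2-fold was that of Ikzf2, for the Ikaros family factor Helios (1.04 ± 0.26), and the falls were those of Lef1 (-1.02 ± 0.05) and Foxp3 (-1.32 ± 0.29), both described with the markers of other T cells.

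Markers of the 3 subsets did not move alike. Of the iNKT17 markers 1 of the 19 tested members rose and 12 fell (median -0.39), in KO FT females 0 rose and 18 fell (median -1.12), and against the female PBS libraries 1 rose and 16 fell (median -0.86). Il7r, the receptor chain for interleukin-7, had 247, 266 and 206 CPM in the aGC libraries, against 557, 644 and 571 CPM in the PBS libraries (log2 change -1.30 ± 0.08), and Il17rb, a receptor chain for interleukin-25, had 131, 128 and 133 CPM in the aGC libraries, against 288, 293 and 296 CPM in the PBS libraries (log2 change -1.16 ± 0.05). Both fell without overlap, and in females they fell by 1.12 and 1.10 on the log2 scale, a response that did not differ from the male one by the test (-0.19 ± 0.12 for Il7r and -0.06 ± 0.07 for Il17rb). Ccr6, for a mucosal homing receptor, did not pass the test in males (0.35 ± 0.30). Of the iNKT1 markers 12 of the 22 tested members rose and 5 fell, in females 5 rose and 12 fell, and against the female PBS libraries 5 rose and 14 fell (medians 0.38, -0.38 and -0.53). Of the iNKT2 and follicular helper-like markers 12 of the 19 tested members rose and 3 fell. Cxcr5, for the B cell follicle homing receptor, had 21.4, 24.4 and 24.8 CPM in the aGC libraries, against 7.902, 7.81 and 7.47 CPM in the PBS libraries (log2 change 1.61 ± 0.15), and Ccr8, for the receptor of CCL1, changed by 1.49 ± 0.07.

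Cytotoxic and NK receptor genes were mixed. Gzmb, for granzyme B, had 6.83, 6.26 and 6.33 CPM in the aGC libraries, against 2.25, 1.15 and 0.711 CPM in the PBS libraries (log2 change 2.26 ± 0.22), while Prf1, for perforin, had 26.8, 29.7 and 27.8 CPM in the aGC libraries, against 54.9, 62.5 and 61.8 CPM in the PBS libraries (log2 change -1.09 ± 0.07). Gzmb rose and Prf1 fell against the male PBS libraries, each without overlap. The female PBS libraries held more Gzmb than the male PBS libraries. Summed over a group before scaling for depth, Gzmb had 323 counts in male aGC, 71 in male PBS and 556 in female PBS libraries. Of the cytotoxic effectors 7 of the 15 tested members rose and 4 fell (median 0.21), in KO FT females 3 rose and 8 fell (median -0.27), and against the female PBS libraries 3 rose and 9 fell (median -0.39). Of the NK receptors 7 of the 18 tested members rose and 3 fell (median 0.22), in KO FT females 1 rose and 13 fell (median -0.82), and against the female PBS libraries 2 rose and 9 fell (median -0.51). The medians of both lists were thus above 0 in males and below 0 in the other pair of comparisons. Klrb1c, for NK1.1, changed by -0.35 ± 0.06, and Ncr1, for the activating receptor NKp46, had 4.08, 2.06 and 2.93 CPM in the aGC libraries, against 0.232, 0.0338 and 0.0889 CPM in the PBS libraries (log2 change 4.83 ± 0.76). Of the cytokine receptor genes 3 of the 26 tested members rose and 15 fell (median -0.25), in KO FT females 10 rose and 11 fell (median 0.14), and against the female PBS libraries 8 rose and 10 fell (median -0.12). Ifngr1, for a chain of the interferon gamma receptor, had 155, 173 and 146 CPM in the aGC libraries, against 380.2, 393 and 392 CPM in the PBS libraries (log2 change -1.30 ± 0.06), with -1.39 in females and -1.45 against the female PBS libraries.

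Nearly all genes of ribosome production and translation rose. Myc, the transcription factor that drives ribosome production and metabolism in dividing lymphocytes, had 475, 578 and 609.5 CPM in the aGC libraries, against 186, 164 and 170.1 CPM in the PBS libraries (log2 change 1.68 ± 0.07, adjusted p = 7.8e-15). Npm1, for the nucleolar protein nucleophosmin, had 817, 835 and 774 CPM in the aGC libraries, against 202, 235 and 201 CPM in the PBS libraries. Ncl, for nucleolin, had 1440.1, 1527 and 1418 CPM in the aGC libraries, against 469, 469 and 460.1 CPM in the PBS libraries. Each aGC library was above each PBS library in all 3 genes, and the log2 changes were 1.92 ± 0.06 for Npm1 and 1.65 ± 0.04 for Ncl. Of the ribosome biogenesis genes 43 of the 45 tested members rose and 0 fell (median 1.16), in KO FT females 42 rose and 0 fell, and against the female PBS libraries 44 rose and 0 fell (median 1.14). The 2 that did not pass in males were Tcof1 (0.12 ± 0.07) and Surf6 (0.14 ± 0.09). Of the genes of translation initiation and tRNA charging 33 of the 34 tested members rose and 0 fell (median 0.85), among them Eif5a, an elongation and initiation factor, with 2823, 3300.0 and 3115 CPM in the aGC libraries, against 1046, 1082 and 994 CPM in the PBS libraries. Of the cytosolic ribosomal protein genes 59 of the 75 tested members rose and 2 fell, with a smaller median of 0.47. Genes such as Npm1, Eif5a and the ribosomal proteins have many processed copies in the genome, among which the quantification could split reads.

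Most genes of the pathways that supply growing cells rose as well. Slc7a5, the large neutral amino acid transporter chain, had 132, 112 and 128 CPM in the aGC libraries, against 36.5, 22.7 and 27.9 CPM in the PBS libraries (log2 change 2.12 ± 0.12). Shmt1, a serine hydroxymethyltransferase that feeds one-carbon units, had 134, 141 and 143 CPM in the aGC libraries, against 16.97, 19.5 and 15.9 CPM in the PBS libraries (log2 change 2.98 ± 0.08). Odc1, the first enzyme of polyamine synthesis, had 311, 279 and 302 CPM in the aGC libraries, against 78.9, 77.9 and 79.1 CPM in the PBS libraries (log2 change 1.92 ± 0.06). The groups did not overlap in any of these, and the changes against the female PBS libraries were 2.65, 2.71 and 2.01. Of the amino acid and one-carbon genes 23 of the 30 tested members rose and 4 fell (median 0.69). Of the nucleotide synthesis genes 26 of the 28 tested members rose and 1 fell (median 0.90), with Ctps, for CTP synthase, at 1.61 ± 0.08, Ppat, for the first step of purine synthesis, at 1.79 ± 0.08 and Umps, of pyrimidine synthesis, at 1.64 ± 0.05. Of the glycolysis genes 11 of the 21 tested members rose and 4 fell, with Ldha at 0.91 ± 0.05 and the lactate exporter Slc16a1 at 1.47 ± 0.07, and Slc2a3 and Pfkp not past the test (-0.18 ± 0.08 and 0.10 ± 0.05). Of the sterol genes 18 of the 28 tested members rose and 2 fell, led by Sqle, for squalene epoxidase, with 51.8, 47.8 and 48.02 CPM in the aGC libraries, against 12.2, 12.7 and 13.7 CPM in the PBS libraries.

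Genes of oxidative phosphorylation, the proteasome and the endoplasmic reticulum rose in more members in KO FT males than in KO FT females. Of the nuclear oxidative phosphorylation genes 44 of the 51 tested members rose and 0 fell (median 0.43), in females 11 rose and 22 fell (median -0.18), and against the female PBS libraries 11 rose and 11 fell. The response was higher in males for 43 of the 51 genes by the test of the difference. Cycs, for cytochrome c, had 100.4, 100.4 and 99.9 CPM in the aGC libraries, against 41.5, 43.9 and 40.7 CPM in the PBS libraries (log2 change 1.25 ± 0.07; 0.82 against the female PBS libraries). Of the proteasome genes 33 of the 34 tested members rose and 0 fell (median 0.75), in females 26 rose and 2 fell (median 0.31), and 26 of the 34 had a higher response in males by that test. Of the unfolded protein response genes 17 of the 26 tested members rose and 5 fell (median 0.43), in females 10 rose and 12 fell (median -0.02). Against the female PBS libraries 10 rose and 9 fell, with a median of 0.07. Hspa5, for the endoplasmic reticulum chaperone BiP, had 3526, 3297 and 3166 CPM in the aGC libraries, against 1535, 1476 and 1518 CPM in the PBS libraries (log2 change 1.14 ± 0.04), and Sdf2l1, for one of its partners, changed by 1.11 ± 0.05 in males and -0.43 in females. Summed over a group before scaling for depth, Hspa5 had 165422 counts in male aGC, 80553 in male PBS and 128521 in female PBS libraries. Of the heat shock and chaperonin genes 24 of the 29 tested members rose and 1 fell (median 1.04), in females 28 rose and 0 fell, with Hspd1, the mitochondrial chaperonin, at 688, 774 and 588 CPM in the aGC libraries, against 164, 163 and 163 CPM in the PBS libraries.

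Replication genes rose nearly as a block. Mcm6, a subunit of the replicative helicase, had 727, 700.2 and 713 CPM in the aGC libraries, against 265, 266 and 278 CPM in the PBS libraries (log2 change 1.40 ± 0.04, adjusted p = 5.0e-18). Mcm3, of the same helicase, had 372, 342 and 353 CPM in the aGC libraries, against 111, 101 and 109.9 CPM in the PBS libraries (log2 change 1.73 ± 0.05). Chek1, for the replication checkpoint kinase, had 12.1, 11.6 and 14.1 CPM in the aGC libraries, against 0.9296, 0.609 and 0.711 CPM in the PBS libraries (log2 change 4.12 ± 0.20). None of these overlapped between treatments, and against the female PBS libraries the changes were 1.14 for Mcm6, 1.68 for Mcm3 and 2.43 for Chek1. Of the list, 44 of the 50 tested members rose and 0 fell (median 1.34), in KO FT females 41 rose and 3 fell (median 0.84), and against the female PBS libraries 44 rose and 2 fell (median 1.09). Members that did not pass included Gins3 (-0.15 ± 0.08), Rpa1 (-0.08 ± 0.04) and Ccne2 (0.64 ± 0.31).

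The promoter window of Mcm6 is shown as one of the replication genes that rose and that hold an E2F-like motif (TTT, any 1 base, GCGC, on either strand; E2F factors control replication genes). Capitals mark 3 matches, 2 of which overlap.
Mcm6 (chr1:128359656-128359955, minus strand): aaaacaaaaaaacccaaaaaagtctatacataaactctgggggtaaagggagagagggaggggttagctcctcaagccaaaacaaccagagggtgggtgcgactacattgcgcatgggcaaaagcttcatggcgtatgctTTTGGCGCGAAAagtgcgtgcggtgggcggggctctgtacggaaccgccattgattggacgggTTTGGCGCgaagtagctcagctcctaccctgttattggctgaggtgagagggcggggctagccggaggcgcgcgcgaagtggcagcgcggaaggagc
This motif was found in 1.38% of 32851 promoter windows, and in 13 of the 49 windows of the replication genes (26.5%). The match is a description of the sequence and no factor was measured on it.

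Mitosis genes, which act after replication, were at low levels. Cdk1, the mitotic kinase, had 13.2, 11.6 and 10.3 CPM in the aGC libraries, against 2.48, 1.99 and 3.82 CPM in the PBS libraries (log2 change 2.14 ± 0.24), and Ccnb1, its cyclin partner, had 7.09, 5.89 and 5.403 CPM in the aGC libraries, against 1.55, 1.39 and 1.600 CPM in the PBS libraries (log2 change 2.03 ± 0.19). Mki67, the Ki-67 proliferation marker, had 6.43, 5.45 and 5.17 CPM in the aGC libraries, against 2.402, 2.603 and 1.33 CPM in the PBS libraries (log2 change 1.39 ± 0.31). Each of the 3 was higher in every aGC library than in any PBS library, yet the changes against the female PBS libraries were 1.43, 0.87 and 1.00. Of the list 20 of the 30 tested members rose and 1 fell (median 0.90), in females 9 rose and 6 fell (median 0.10), and against the female PBS libraries 10 rose and 2 fell (median 0.40). Ccnb2 and Cep55, for another mitotic cyclin and an abscission protein, were near or at 0 in the male PBS libraries, at 0, 0.203 and 0.0889 CPM for Ccnb2 and 0 in all 3 for Cep55, while the female PBS libraries had 9.48 ± 2.22 and 3.66 ± 0.374 CPM (SD, n = 3).

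Survival genes of the BCL2 family moved both ways. Bcl2l11, for the pro-death protein BIM, had 68.4, 84.5 and 84.5 CPM in the aGC libraries, against 24.4, 25.1 and 24.00 CPM in the PBS libraries (log2 change 1.69 ± 0.15). Bcl2l1, for the pro-survival BCL-XL, had 148, 154 and 148 CPM in the aGC libraries, against 50.7, 53.1 and 50.05 CPM in the PBS libraries (log2 change 1.54 ± 0.06). Bcl2, itself pro-survival, had 61.7, 64.1 and 59.7 CPM in the aGC libraries, against 136, 129 and 134 CPM in the PBS libraries (log2 change -1.11 ± 0.07). The groups did not overlap in these 3 genes, and all 3 changed in the same direction in KO FT females (2.26, 1.09 and -0.52). Bbc3, for the p53 target PUMA, had 3.82, 4.27 and 5.08 CPM in the aGC libraries, against 23.4, 19.6 and 19.02 CPM in the PBS libraries (log2 change -2.22 ± 0.17), with a change of -0.01 in females that did not pass the test. Of the list 6 of the 18 tested members rose and 6 fell.

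T cell receptor genes fell by small amounts. Of the receptor complex and proximal signalling genes 3 of the 32 tested members rose and 24 fell (median -0.36), none by 2-fold, in KO FT females 10 rose and 13 fell (median 0.01), and against the female PBS libraries 7 rose and 15 fell (median -0.13). Fewer members thus fell against the female PBS libraries, which are low in Cd8a, though falls still outnumbered rises. In KO FT females, whose aGC libraries are high in Cd8a, the list had no common direction. The relation of the male fall to other T cells was not tested. Cd3e, for a chain of the CD3 complex, had 741, 747 and 833 CPM in the aGC libraries, against 1095, 1132 and 1074 CPM in the PBS libraries (log2 change -0.51 ± 0.05). Of the invariant receptor segments and constant regions 0 of the 10 tested members rose and 8 fell (median -0.29), with Trav11 at -0.18 ± 0.05 and Traj18, which did not pass, at -0.12 ± 0.06. Trav11 changed by -1.29 in KO FT females. The alpha segments that the invariant receptor does not use fell much further in males. Of these 3 of the 49 tested members rose and 32 fell (median -1.34), in females 18 rose and 2 fell (median 0.45). Their summed level was 49.9, 44.8 and 50.9 CPM in the aGC libraries, against 119, 123 and 113 CPM in the PBS libraries. Among KO FT females the sum was 101 to 107 CPM with aGC and 65.7 to 71.7 CPM with PBS. Several segments, such as Trav6-6 and Trav6d-6, are near-identical copies that the quantification could split.

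Of the naive and recirculating T cell genes, 20 of 22 fell. Klf2, the transcription factor that maintains exit and homing genes, had 19.7, 21.8 and 22.2 CPM in the aGC libraries, against 126, 118 and 121 CPM in the PBS libraries (log2 change -2.51 ± 0.06, adjusted p = 2.8e-19). S1pr1, for the receptor that lets lymphocytes leave the node, had 40.03, 36.6 and 34.2 CPM in the aGC libraries, against 195, 193 and 185 CPM in the PBS libraries (log2 change -2.37 ± 0.06). The aGC libraries were below the PBS libraries without overlap in both genes. Igfbp4, high in naive T cells, had 71.5, 70.5 and 64.1 CPM in the aGC libraries, against 569, 503 and 552 CPM in the PBS libraries (log2 change -2.98 ± 0.06). Ccr7, for the lymph node homing receptor, changed by -1.16 ± 0.05 and Lef1, a transcription factor of naive and memory T cells, by -1.02 ± 0.05. The list's median was -1.23, and Foxp1 (-0.14 ± 0.07) and Bach2 (-0.08 ± 0.12) did not pass.

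These genes moved with the CD8 markers. The summed level of the naive list was 2829.5, 2758 and 2729 CPM in the aGC libraries, against 6086, 6123 and 6079 CPM in the PBS libraries. In KO FT females, where the aGC libraries are the ones high in Cd8a, the naive list ran the other way: 17 rose and 5 fell (median 0.60), and the sum was 4474 to 4545 CPM with aGC and 3564 to 3614 CPM with PBS. Against the female PBS libraries, low in Cd8a, 2 rose and 15 fell in the male aGC libraries, with a median of -0.42. There Klf2 changed by -0.79, S1pr1 by -1.30 and Igfbp4 by -0.96, while Ccr7 was higher, at 0.40. The part of other T cells in these falls was not tested.

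**Figure D3:**
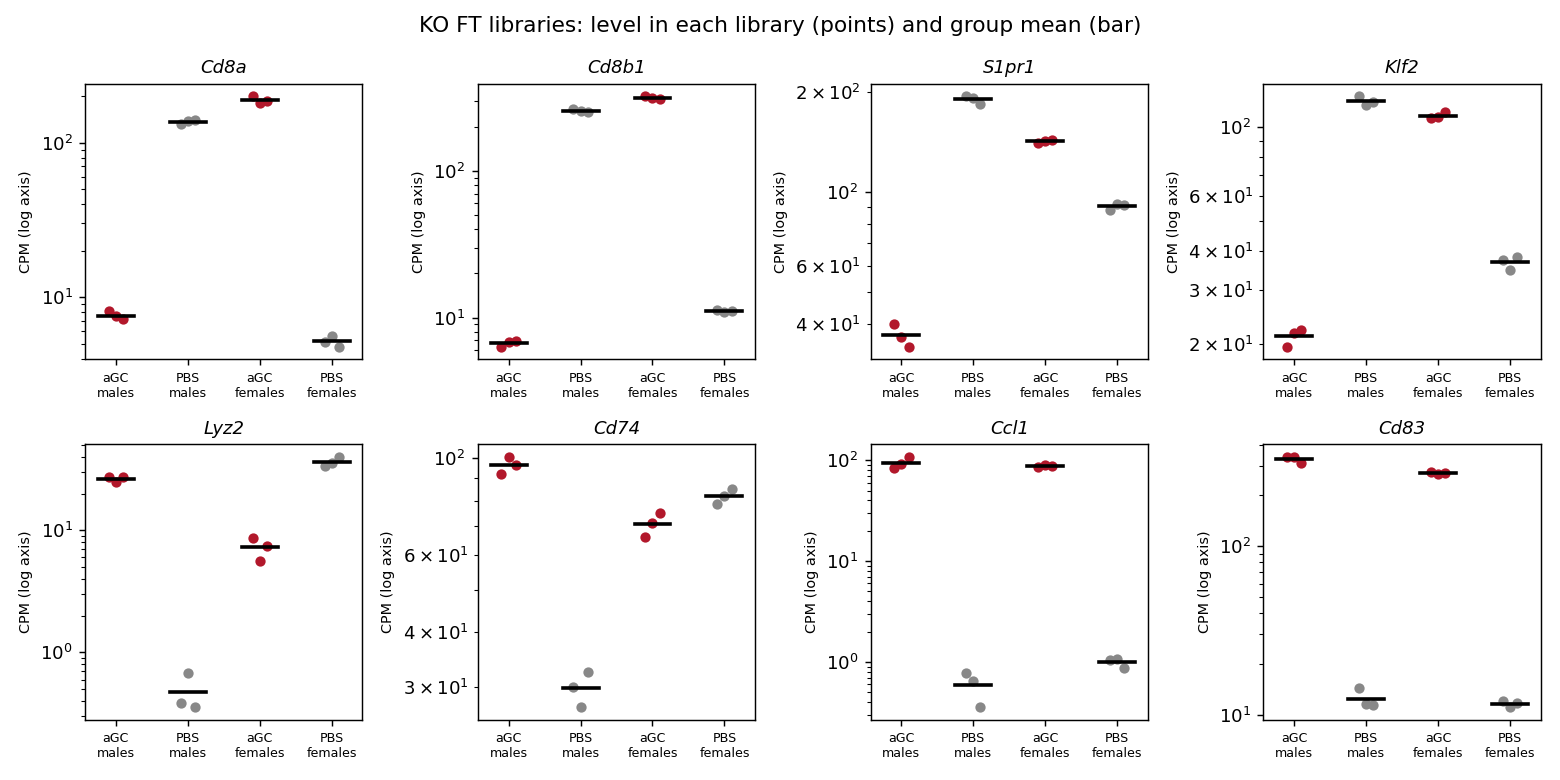
CPM (log axis) of 8 genes in each library of the 4 KO FT groups, in the order aGC males, PBS males, aGC females, PBS females; bars mark the group means. Cd8a, Cd8b1, S1pr1 and Klf2 are high in PBS males and in aGC females, Lyz2 and Cd74 are lowest in PBS males, and Ccl1 and Cd83 are high in both aGC groups.

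Of the 11 conventional CD8 T cell markers 2 rose and 7 fell, and 1, Gzmk, was at 0 in all 6 libraries. Cd8b1 changed by -5.27 ± 0.06 and Cd8a by -4.17 ± 0.08 (adjusted p = 1.4e-26 and 1.4e-21). Dapl1, found in naive CD8 T cells, had 1.07, 0.8100 and 1.82 CPM in the aGC libraries, against 22.2, 24.1 and 14.8 CPM in the PBS libraries (log2 change -3.98 ± 0.25), and Itgae, for CD103, had 14.1, 10.8 and 14.8 CPM in the aGC libraries, against 30.4, 30.4 and 36.00 CPM in the PBS libraries (log2 change -1.27 ± 0.11). Nkg7 and Eomes, which iNKT1 cells also express, rose (0.42 ± 0.06 and 1.44 ± 0.11), so that the summed level of the list overlapped between the treatments, at 1252, 1174 and 1424 CPM in the aGC libraries, against 1466, 1485 and 1402 CPM in the PBS libraries. The male aGC libraries still differed from the female PBS libraries in these genes by 0.55 for Cd8a and -0.74 for Cd8b1.

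Markers of regulatory T cells and of cells other than alpha beta T cells were followed as lists. Foxp3, the defining factor of regulatory T cells, had 0.736, 1.105 and 1.397 CPM in the aGC libraries, against 1.78, 3.01 and 3.47 CPM in the PBS libraries. Of the regulatory T cell markers 5 of the 13 tested members rose and 4 fell, and their summed level was 1307, 1266 and 1443 CPM in the aGC libraries, against 1154, 1101 and 1135 CPM in the PBS libraries. The sum was higher with aGC without overlap while Foxp3 was lower, and the rises included the activation genes Il2ra and Tnfrsf4 (1.49 ± 0.06 and 2.13 ± 0.12). Trdc, the delta chain constant region, had 1.34, 0.663 and 0.978 CPM in the aGC libraries, against 4.18, 5.51 and 5.601 CPM in the PBS libraries. Of the 9 tested gamma delta markers 1 rose and 2 fell, and their summed level was 1009, 897 and 886 CPM in the aGC libraries, against 981, 1077 and 1031 CPM in the PBS libraries. The rise and 1 of the falls were at least 2-fold. Trdc, at no more than 5.601 CPM, held little of that sum. Of the B cell markers 7 of the 22 tested members rose, 6 of them at least 2-fold, and 6 fell, 4 of them at least 2-fold. The list's median log2 change was 0.21, and the rises included Cd74 (1.70), described with the myeloid genes. The defining Ms4a1 was at 0.368 to 0.535 CPM in the aGC libraries and at 1.07 to 1.39 CPM in the PBS libraries. The B cell sum, 714, 658 and 713 CPM in the aGC libraries, against 1049, 1028 and 1061 CPM in the PBS libraries, was mostly Ighm, the immunoglobulin mu constant region, which changed by -0.84 ± 0.04. Igha, of IgA plasma cells, had 0.134, 0.221 and 0.279 CPM in the aGC libraries, against 10.7, 10.99 and 8.18 CPM in the PBS libraries. Of the plasma cell markers 2 of the 7 tested members rose and 3 fell, with a summed level of 273, 264 and 289 CPM in the aGC libraries, against 236, 229.9 and 230.2 CPM in the PBS libraries; Xbp1, a secretory pathway factor that many cells express, held most of it and rose (0.42 ± 0.05). Of the neutrophil, mast cell and basophil markers 1 of the 4 tested members rose and 1 fell. Their summed level was 2.81, 2.21 and 1.96 CPM in the aGC libraries, against 4.11, 3.35 and 2.67 CPM in the PBS libraries. S100a9, a neutrophil gene, was at 0 in the aGC libraries and had 1.55, 0.947 and 1.07 CPM in the PBS libraries, at least 18.6-fold lower with aGC. Kit, of the same list, went the other way, with 37 counts over the aGC libraries and 1 over the PBS libraries. Of the natural killer and innate lymphoid markers 3 of the 9 tested members rose and 3 fell, with a summed level of 837, 830.2 and 920.3 CPM in the aGC libraries, against 1185, 1229 and 1164 CPM in the PBS libraries. The part of these cells in the results was not tested.

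Some myeloid genes were higher with aGC, as was Cd74, which was counted among the B cell markers. Cd74, the invariant chain of MHC class II, had 91.9, 101 and 96.6 CPM in the aGC libraries, against 30.1, 26.98 and 32.5 CPM in the PBS libraries (log2 change 1.70 ± 0.08). Lyz2, a lysozyme of macrophages and neutrophils, had 27.2, 24.9 and 27.3 CPM in the aGC libraries, against 0.387, 0.676 and 0.356 CPM in the PBS libraries (log2 change 5.62 ± 0.19). Csf1r, the macrophage growth factor receptor, was at 0 in the PBS libraries and had 3.48, 3.09 and 2.93 CPM in the aGC libraries, at least 56.3-fold higher. In KO FT females these 3 genes moved the other way: Lyz2 had 7.23 ± 1.51 CPM with aGC and 36.4 ± 3.29 CPM with PBS, and Csf1r 0.318 ± 0.271 and 2.71 ± 0.943 CPM (SD, n = 3 each). Against the female PBS libraries Lyz2 changed by -0.46, Cd74 by 0.23 and Csf1r by 0.21. The male PBS libraries were thus the lowest of the 4 KO FT groups for Lyz2 and Cd74. Of the dendritic cell and macrophage markers 6 of the 20 tested members rose and 3 fell, with a summed level of 506, 492 and 531 CPM in the aGC libraries, against 613, 637 and 611 CPM in the PBS libraries, most of it genes that T cells or many cell types also express, such as Ccr9, Cst3 and Bst2. Cd14, for a monocyte receptor of bacterial lipopolysaccharide, went against the others at 0.134, 0 and 0.0932 CPM in the aGC libraries, against 5.35, 4.902 and 5.42 CPM in the PBS libraries. The part of myeloid cells and of B cells in these values was not tested.

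Interferon-stimulated genes had no common direction in males. Of 44, 11 rose and 20 fell (median -0.20), whereas in KO FT females 1 rose and 39 fell (median -1.28). Irf7, the factor that amplifies the type I interferon response, had 159, 148 and 160.2 CPM in the aGC libraries, against 247, 248 and 255 CPM in the PBS libraries (log2 change -0.68 ± 0.06), and Isg15, a ubiquitin-like antiviral protein, had 40.8, 45.7 and 56.4 CPM in the aGC libraries, against 24.2, 23.6 and 20.8 CPM in the PBS libraries (log2 change 1.06 ± 0.12). Ifit3, an antiviral RNA-response gene, had 115, 97.1 and 125 CPM in the aGC libraries, against 93.5, 99.9 and 92.7 CPM in the PBS libraries, overlapping values with a log2 change of 0.24 ± 0.07, against -3.59 in females. Mx1, an antiviral GTPase, had 13.3, 11.3 and 13.2 CPM in the aGC libraries, against 0.155, 0.0676 and 0.0889 CPM in the PBS libraries (log2 change 6.97 ± 0.35). Mx1 was thus near 0 in the male PBS libraries, while the female PBS libraries had 17.7 ± 2.81 CPM (SD, n = 3) and the change against them was -0.49. The response was higher in males than in females for 36 of the 44 genes and lower for 2. Against the female PBS libraries 0 rose and 37 fell (median -0.81).

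The response of KO FT males was next set against that of KO FT females, which shares no library with it. Of 8529 genes (53.5%) called in males and 8941 (56.0%) in females, 5602 were called in both, and 4143 of these (74.0%) moved in the same direction. The log2 changes correlated at 0.473 (Pearson) over 8512 genes with a mean of at least 10 CPM in the 6 libraries, a description across genes, which are not independent replicates. Of the 1628 rises of at least 2-fold in males 36.7% were also such rises in females, where they make up 35.0% of the 1706 (10.7% of all tested), and of the 1390 falls 17.3%, or 14.98% of the 1609 there (10.1% of all tested). The response itself differed for 7451 genes (46.7%), 4043 (25.3%) higher and 3408 (21.4%) lower in males. Whether the falls recurred less often than the rises was not tested. For Ccl1, Cd83, Bcat1, Myc, Ncl and Il2ra the difference did not pass the test, with log2 values of 0.79 ± 0.39, 0.18 ± 0.10, -0.13 ± 0.42, -0.16 ± 0.10, -0.06 ± 0.05 and 0.07 ± 0.09.

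**Figure D4:**
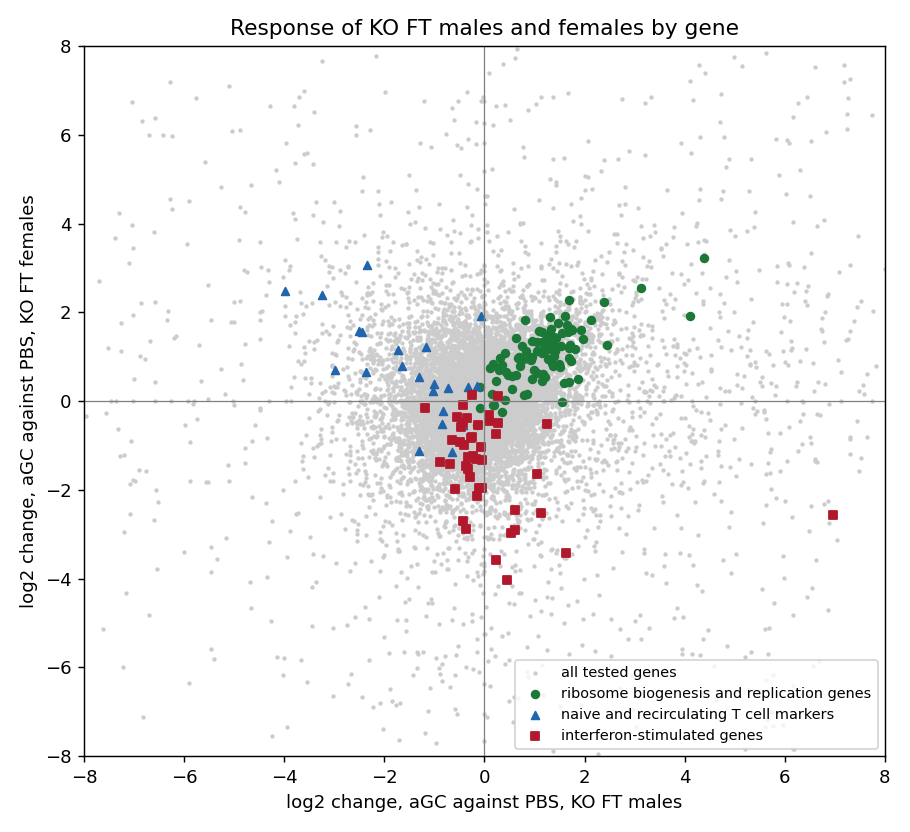
Log2 change with aGC in KO FT females (vertical) against that in KO FT males (horizontal) for all tested genes (grey), with ribosome biogenesis and replication genes (filled circles), naive T cell markers (triangles) and interferon-stimulated genes (squares) marked. Most of the first group lies in the upper right, most naive markers in the upper left, and most interferon-stimulated genes below 0 on the vertical axis; 39 genes lie outside the axes.

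The response of WT FT males shares no library either. There 5054 genes (31.7%) were higher and 5568 (34.9%) lower with aGC. Of 8529 genes called in KO FT males and 10622 (66.6%) in WT FT males, 6813 were called in both and 6185 of these (90.8%) moved in the same direction, with a correlation of 0.823 over 8512 genes. Of the rises of at least 2-fold 59.5% recurred, 39.3% of the 2465 (15.5% of all tested) in WT FT males, and of the falls 51.8%, 25.5% of the 2829 (17.7%) there. The response differed for 6216 genes (39.0%), 3224 (20.2%) higher and 2992 (18.8%) lower in KO FT males. Cd8a was at 5.54 to 6.905 CPM in the WT FT aGC males, against 281 to 292 CPM in the WT FT PBS males, so both male comparisons have the PBS libraries high in that marker. In WT FT females, as in KO FT females, the aGC libraries were the ones high in Cd8a. Summed over a group before scaling for depth, WT FT females had 11233 Cd8a counts with aGC and 421 with PBS.

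Growth genes rose less in KO FT than in WT FT males. Of the replication genes 37 of 50 had a lower response and 2 a higher one, and of the ribosome biogenesis genes 32 of 45 had a lower response and 1 a higher one. Mcm2, of the replicative helicase, changed by 1.31 ± 0.05 in KO FT males and 2.52 ± 0.05 in WT FT males, a difference of -1.21 ± 0.07 (adjusted p = 2.3e-11). Ifng changed by 2.43 in KO FT and 3.18 in WT FT males (difference -0.75 ± 0.13, adjusted p = 9.0e-05), and Il4 by 1.89 and 2.55 (difference -0.67 ± 0.12, adjusted p = 1.6e-04). Irf8 changed by 2.70 in KO FT and 4.10 in WT FT males (difference -1.41 ± 0.12). The opposite held for Cd83 and Tnfsf4, whose responses were higher in KO FT males by 0.68 ± 0.09 and 2.58 ± 0.32. These higher responses went with lower PBS counts. Summed over a group before scaling for depth, Cd83 had 658 counts in KO FT and 1956 in WT FT PBS males. With aGC it had 16261 and 22042. Tnfsf4 had 18 and 132 counts with PBS, and 983 and 885 with aGC. Of the naive markers 13 of 22 had a higher response in KO FT males and 1 a lower one. Klf2 fell less (-2.51 in KO FT and -3.83 in WT FT males), and Cd8a fell less too (-4.17 and -5.53). The part of that difference in Cd8a in the others was not tested.

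Of the 15 largest falls not yet described, Slc16a7, a monocarboxylate transporter, had 1 count over the aGC libraries and 198 over the PBS libraries, a ratio of 0.00543 (95% counting interval 0.000137 to 0.0306), and its PBS libraries spread widely, at 4.803, 0.845 and 9.87 CPM. Ampd1, for an AMP deaminase, had 0.402, 0.663 and 0.932 CPM in the aGC libraries, against 19.4, 19.9 and 20.2 CPM in the PBS libraries (log2 change -4.83 ± 0.25), and changed by -3.51 against the female PBS libraries, with 0.47 in KO FT females. Haao, of tryptophan breakdown, Slc16a5, a monocarboxylate transporter family member, Fcgrt, the neonatal Fc receptor, Pdlim4, a PDZ and LIM domain protein, and Ggt1, a glutathione-cleaving enzyme, fell by 3.03 to 4.80 on the log2 scale. In KO FT females these 5 rose, by 2.94, 4.04, 1.38, 0.82 and 2.77 in that order, the direction Cd8a took there. Lair1, an inhibitory collagen receptor, and Kcnj8, a potassium channel, changed by -3.05 ± 0.29 and -3.04 ± 0.33, with -1.61 and -2.15 against the female PBS libraries.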

How the data were processed

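The deposited table holds expected counts per gene, which the authors estimated with kallisto against GRCm38 (mm10), per the submitters' processing notes; the annotation release, strand setting and any summing over transcripts were stated neither in the labels nor in the notes. Counts were rounded to whole numbers. Of 55335 gene identifiers, 55154 matched a symbol and position in GENCODE M21 and 181 did not. The filterByExpr rule of edgeR (at least 10 counts, total of at least 15, by group) kept 15953 genes, and libraries were scaled with TMM. Differences were tested with edgeR's quasi-likelihood test (edgeR 4.0.16, limma 3.58.1, R 4.3.3) on all 24 libraries as 8 group means, with 16 residual degrees of freedom, and p-values were adjusted by Benjamini-Hochberg over all tested genes (threshold 0.05). The test was run on simulated data with planted changes first. DESeq2 1.42.0 served as an alternative.

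Depth ran from 10616109 to 27906841 counts in the 6 libraries; intervals and floors of 3 counts cover counting error only. Replicates differed by more than sampling noise (chi-square per degree of freedom from 4.59 to 16.4), so none was merged. Libraries of the same replicate number showed no shared deviation, with correlations of -0.03, 0.01 and -0.05. With 3 libraries a group this cannot show that they were unpaired, and the labels do not state it. The members and gene lists were chosen with earlier results of these data known, and the lists were described by counts, medians and summed levels, with no set test; the exact permutation test planned for the sums is not given, since 3 against 3 libraries cannot go below 0.1. Named genes were the 15 largest rises and falls with an adjusted p under 0.05 and a mean of at least 5 CPM in 1 group (no clones, pseudogenes or receptor segments), from every list its 5 members of smallest adjusted p plus at most 3 not past the threshold, key genes marked in the lists, members of the other-cell marker lists, and the 8 largest differences in response in each direction; the text describes a selection of these, and some genes are not reported here. A gene at 0 in a group was set against 3 counts over that group. Setting such genes to their bound moved no list median by more than 0.01 on the log2 scale except for 2 small marker lists that are not described.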

Additional observations from a re-analysis of the deposited data

Results flagged for a closer look

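The response to aGC differed between KO FT males and KO FT females by the test of the difference itself for 7451 genes, 4043 higher and 3408 lower in males. Among the largest differences with enough counts in all 4 groups, those lower in males were Cd8b1 (-10.08 on the log2 scale), Cd8a (-9.37), Haao (-7.75), Slc16a5 (-7.27) and Dapl1 (-6.46). Those higher in males were Mx1 (9.54), Pla2g2d, for a secreted phospholipase (8.78), Lyz2 (7.96), Ccnb2 (6.39) and Cd209b, for a lectin of marginal zone macrophages (6.32). Enough here means more than 3 counts over a group. Over the male PBS group Mx1 and Pla2g2d had 5 counts each and Ccnb2 had 7, so the sizes of these differences rest on few counts. Slc6a19, Foxp3, Slc16a7, Mir155hg, Sspo and Cep55 also differed, with a group at or under 3 counts, so no difference is given for them.

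The response differed between KO FT males and WT FT males for 6216 genes, 3224 higher and 2992 lower in KO FT males. The largest with enough counts were Mx1 (8.01) and Lyz2 (6.05) among those higher in KO FT males, and Ccne2, for cyclin E2 (-6.54), and Ajm1 (-5.64) among those lower. Few counts underlie 3 of these sizes. Mx1 had 5 counts over the KO FT male PBS group, and Ccne2 and Ajm1 had 4 and 7 over the WT FT male PBS group. Another 12 of the named differences had a group at or under 3 counts.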

How the results depend on the processing

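Of the alternatives, 2 moved the counts of genes by over 1.5 times. Testing against a 1.5-fold change gave 1762 genes higher and 1303 lower in KO FT males, 2895 whose response differed from KO FT females, 2059 from WT FT males, and 2423 for the male aGC against the female PBS libraries. Summing each group to 1 profile, with the three-way term taken as error, gave 1047, 580, 502, 14 and 717 genes in the same order; the cause was not tested. Under the 1.5-fold test 14 of 133 named genes lost their call, and under the 1-profile fit 14 of the 110 it could be run for. Of 100 counts of list members that rose or fell, 54 and 70 moved by over 1.5 times under these settings, 15 with only the 6 libraries in the fit, and 0 to 7 under each of the others. Under the 1-profile fit Ifit3 (-0.85) and Bach2 (0.021) changed sign. Leaving out 1 library at a time gave 3981 to 4168 higher, 3841 to 4024 lower, 6997 to 7455 and 5677 to 6073 differences in response, and 7239 to 7638 for the female PBS comparison, and Bach2, not called in any of them, ranged from -0.13 to 0.0019 on the log2 scale. The replicate block gave 4222 higher and 4205 lower and changed the call of 1 of 133 named genes (Slc2a3, then past the threshold). DESeq2 gave 4380 and 4122, and its size factors in edgeR 4346 and 4181. Gata3 lost its call without any 1 of the PBS libraries or without aGC replicate 2 (0.12 to 0.28 on the log2 scale), Ifit3 without aGC replicate 3 (0.15), and Trav11 without aGC replicate 2 (-0.12), with no filter on low counts (-0.14) and with only the 6 libraries (-0.15). Levels under 1 CPM rest on few counts.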
